A study of Mus musculus with 4 samples.

Results

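Ventricular cardiomyocytes of the E9.5 and E10.5 mouse embryo were chosen by 2 counts of unique molecular identifiers (UMIs, 1 for each captured RNA molecule). A cell had to hold at least 2 UMIs of at least 5 of the 8 sarcomere genes Tnnt2, Myl4, Myl7, Actc1, Tnni1, Ttn, Myh6 and Myh7, and at least 1 UMI of Irx4, a homeobox gene of the ventricular chamber. Of 12125 cells in the E9.5 and E10.5 libraries, 4052 and 8042 passed a minimum of 1000 genes and a maximum of 10% mitochondrial UMIs. The sarcomere genes selected 517 cells in the E9.5 library and 288 in the E10.5 library, and Irx4 selected 107 and 24 of these, 131 ventricular cells in all. The 410 and 264 sarcomere cells with no Irx4 UMI served as the comparison. They were a mixture. In it, 289 and 184 cells with Nr2f1 or Nr2f2 are called atrial-like here, and 83 and 69 cells without these genes but with Isl1, Rspo3 or Tdgf1 are called outflow-like.

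The study profiled the cardiopharyngeal mesoderm, the early mesoderm that gives heart, head muscle and connective tissue, by droplet single-cell RNA-seq. The samples used here hold 1 library for each of 4 stages, E8.0 and E8.25 as well as the 2 described here, from Mesp1Cre;Rosa26-GFPflox/+ embryos of the Swiss Webster strain, with no other allele and no treatment. Embryos were pooled and both sexes were taken without typing. GFP-positive, DAPI-negative cells were sorted from the pharyngeal apparatus and heart at E9.5 and E10.5, and from the upper body in the 2 earlier libraries. Every cell, control or ventricular, therefore carries the same Cre and reporter, and only descendants of cells that once expressed Mesp1 were kept. Since a stage is 1 library, stage and library cannot be told apart, and stage differences are given without a test.

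The ventricle is built from working muscle cells that carry the myosin light chains Myl2 and Myl3 and the homeobox factor Irx4. Its wall has an outer compact layer, marked by the Notch-family repressor Hey2, and inner trabeculae, which make the natriuretic peptides Nppa and Nppb. Hand1 and Cited1 are known for the left ventricle, while the atria depend on the orphan nuclear receptors Nr2f1 and Nr2f2. Contraction is triggered by calcium released through Ryr2 and taken back by a pump that phospholamban (Pln) restrains.

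The promoters of 4 genes on which the results turn are shown here, as the 250 bases before the transcription start in RefSeq (GRCm38.p6), because Myl3, Hey2 and Pln separated the ventricular cells from other sarcomere cells and Cck divided the ventricular cells among themselves. Capitals mark motifs on either strand. The letters AAGTG are a site of NKX2 factors. The letters GATAA are a site of GATA factors, and the letters CATTCC one of TEAD factors. The CArG box is bound by serum response factor. Of 32851 promoter windows in the table, 40.7% held AAGTG, 22.6% GATAA, 12.6% CATTCC and 1.47% a CArG box.
Myl3: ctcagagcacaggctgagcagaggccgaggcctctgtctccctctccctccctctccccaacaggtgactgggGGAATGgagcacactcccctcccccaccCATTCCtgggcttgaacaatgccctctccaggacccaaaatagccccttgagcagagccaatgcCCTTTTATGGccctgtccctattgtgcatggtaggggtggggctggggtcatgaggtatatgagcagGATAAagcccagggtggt
Hey2: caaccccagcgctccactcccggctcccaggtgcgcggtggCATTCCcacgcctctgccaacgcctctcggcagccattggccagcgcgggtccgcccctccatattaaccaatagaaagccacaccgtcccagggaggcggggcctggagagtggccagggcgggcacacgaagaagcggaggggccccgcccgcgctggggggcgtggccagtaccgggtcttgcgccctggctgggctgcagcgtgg
Pln: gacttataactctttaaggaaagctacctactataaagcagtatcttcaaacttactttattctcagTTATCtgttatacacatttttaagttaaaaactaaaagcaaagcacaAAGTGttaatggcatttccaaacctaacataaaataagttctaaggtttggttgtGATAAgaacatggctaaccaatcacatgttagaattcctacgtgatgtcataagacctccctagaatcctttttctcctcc
Cck: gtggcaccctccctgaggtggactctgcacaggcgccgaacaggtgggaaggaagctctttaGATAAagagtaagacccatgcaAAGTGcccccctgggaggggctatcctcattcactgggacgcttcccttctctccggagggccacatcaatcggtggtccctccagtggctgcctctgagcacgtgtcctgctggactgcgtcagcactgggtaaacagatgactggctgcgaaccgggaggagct
The Myl3 window (chr9:110763428-110763677, plus strand) held a CArG box starting 85 bases before the start, a GATAA at 18, and CATTCC at 149 and, reversed, at 177. The Hey2 window (chr10:30842784-30843033, minus strand) held 1 CATTCC at 209. The Pln window (chr10:53337436-53337685, plus strand) held AAGTG at 136 and GATAA at 81 and, reversed, at 183. The Cck window (chr9:121495695-121495944, minus strand) held AAGTG at 166 and GATAA at 188. The T-box letters AGGTGT (11.8% of all windows) and the MEF2 site (0.508%) were not in these 4 windows. These matches describe letters, not binding.

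The rule's own genes are given as description. Irx4 (ENSMUSG00000021604, chr13:73259589-73269622 in GRCm38) held a single UMI in 47 of 107 cells at E9.5 and in 14 of 24 at E10.5, and at most 7 and 4 UMIs. The cells at 1 UMI lie just inside the threshold, and the comparison cells at 0 lie just outside. Summed over the ventricular cells, Irx4 stood at 88.6 counts per 1000000 UMIs (CPM, 95% exact Poisson interval 76.9 to 101.5) in the E9.5 library and 88.1 CPM (63.0 to 120) in the E10.5 library. Of the ventricular cells 97.2% and 87.5% held all 8 sarcomere genes, against 36.3% and 35.2% of the comparison cells, so Irx4 also picked cells with more of the contractile genes. Tnnt2 stood at 4182 CPM in ventricular and 2402 CPM in other cells at E9.5, and at 4006 and 2435 CPM at E10.5. Myh7, a slow myosin heavy chain, stood at 1440 against 430.7 CPM and at 1829 against 514.8 CPM. Ttn, the giant elastic protein titin, stood at 1681 against 901.5 CPM and at 1851 against 1043 CPM, and Actc1, cardiac alpha-actin, at 8185 against 4233 CPM and at 7621 against 4979 CPM. Myl4 (7304 against 4827 CPM at E9.5), Tnni1 (3294 against 1962 CPM) and Myh6 (645 against 399 CPM) were also higher in the ventricular cells in both libraries. Myl7 was at 13431 against 8968 CPM at E9.5 but at 8522 against 9941 CPM at E10.5. All intervals on summed UMIs cover counting error only.

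Irx4 UMIs were rare outside the sarcomere cells. They were seen in 8 of 3535 such cells at E9.5 (0.226%) and in 5 of 7754 at E10.5 (0.0645%), at median depths of 17389 and 15605.5 UMIs. Ventricular cells made up 20.7% of the sarcomere cells at E9.5 (exact binomial 95% interval 17.3 to 24.4) and 8.33% at E10.5 (5.41 to 12.1). Of all filtered cells they were 2.64% (2.17 to 3.18) and 0.298% (0.191 to 0.444). When each cell was thinned to 8000 UMIs the shares of sarcomere cells were 12.9% and 5.68%. The share was thus lower at E10.5 beyond counting error, while dissection, sorting and stage cannot be told apart.

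The ventricular cells were deeper than the comparison cells, with medians of 19858 against 17149 UMIs at E9.5 and 18698 against 15615.5 UMIs at E10.5. Their median mitochondrial share was also higher, at 3.37% against 2.24% and 4.11% against 3.14%. Depth and mitochondrial share moved with the contrast, and their part in it was not tested beyond the thinned values. The 2 libraries held 74920880 and 142850521 UMIs and shared 41 cell barcodes, none of them of a ventricular cell. The highest simulated-doublet scores of each library were marked at a fixed rate, 131 of 4052 filtered cells at E9.5 and 517 of 8042 at E10.5. Among them were 7 and 2 of the ventricular cells and 27 of 410 and 36 of 264 comparison cells. The scoring tool's own threshold marked none of the ventricular cells.

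The label was checked against ventricular genes outside the rule. Myl2, the ventricular regulatory light chain, was detected in 107 of 107 ventricular cells at E9.5 and in 24 of 24 at E10.5. Per 10000 UMIs of a cell, its lowest, median and highest levels were 1.36, 40.1 and 137 at E9.5 and 5.18, 81.3 and 129 at E10.5. Among the comparison cells the median was 0 at both stages, and 149 of 410 and 67 of 264 cells held a UMI. The ranges overlapped, since 67 and 24 comparison cells held 10 or more Myl2 UMIs. Myl3 had its lowest, median and highest levels at 6.91, 36.7 and 98.0 at E9.5 and at 18.9, 44.9 and 81.6 at E10.5, so it too was found in each ventricular cell. Hey2 was seen in 49 of 107 ventricular and 35 of 410 comparison cells at E9.5, and in 9 of 24 and 20 of 264 at E10.5. On the thinned cells Myl2 was found in 100% of ventricular cells at both stages against 27.2% and 20.2% of the others, and Hey2 in 24.5% and 27.3% against 3.43% and 3.31%. By Myl2, Myl3 and Hey2 the label ventricular therefore fitted these cells. Some also held the genes that set the atrial-like and outflow-like classes apart. Nr2f1 or Nr2f2 was found in 29 of 107 ventricular cells at E9.5 and in 3 of 24 at E10.5. Isl1, Rspo3 or Tdgf1 was found in 30 and 11 of them.

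**Figure D1:**
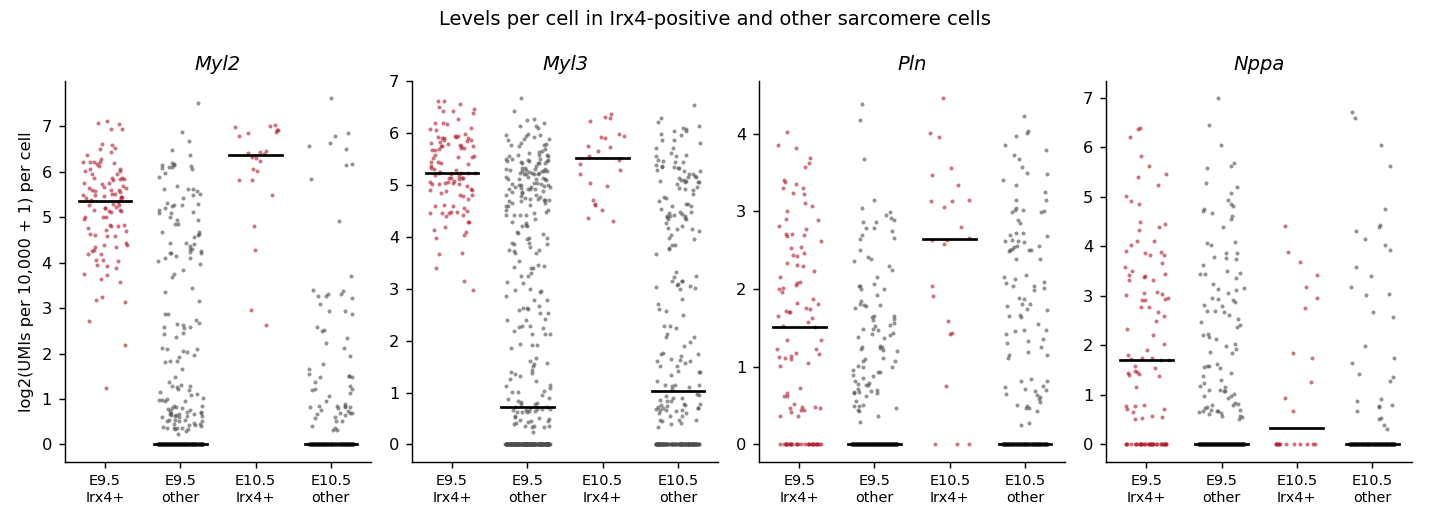
Each point is 1 cell, on a log2(UMIs per 10000 + 1) axis, for Myl2, Myl3, Pln and Nppa in Irx4-positive (ventricular) and other sarcomere cells at E9.5 and E10.5, and bars are medians. Myl2 has a median of 40.1 UMIs per 10000 in the 107 ventricular cells at E9.5, 81.3 in the 24 at E10.5, and 0 in the other cells of both stages.

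Ventricular cells were compared with the other sarcomere cells on UMI sums per library. Myl2, Hey2, Cited1, Pln and Myl3 were several-fold higher in ventricular cells, and the atrial and sinoatrial genes Shox2, Vsnl1, Nr2f2 and Kcna5 were several-fold lower. Of 10611 genes tested, 536 (5.05%) were higher and 443 (4.17%) lower in ventricular cells (edgeR quasi-likelihood test with a library term, Benjamini-Hochberg adjusted p below 0.05), and the median log2 difference over all genes was -0.002. The spread in this test comes from the 2 libraries alone, which differ in stage. Its p-values set the mean difference between classes against that spread, with information shared among genes. A low p-value does not show that a gene differed alike in both libraries, and Cck and Irx1 below did not. DESeq2 called 253 genes in place of 979. With the library term left out, 15 genes were called.

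Myl2 (chr5:122092724-122113473) was the gene with the largest positive difference among those named by the rule. It stood at 3941 CPM in ventricular and 557 CPM in other cells at E9.5, and at 8258 and 432 CPM at E10.5, a log2 difference of 3.68 (SE 0.25, adjusted p = 2.39e-06). Hey2 followed with 45.8 against 5.96 CPM and 46.3 against 6.79 CPM (log2 3.02, SE 0.25, adjusted p = 8.65e-06). Both genes were higher in ventricular cells in each library. Cited1, a transcriptional co-regulator, was at 212 against 32.4 CPM and 258 against 53.7 CPM (log2 2.66, SE 0.15, adjusted p = 2.53e-07). Adprhl1, a heart-restricted ADP-ribosylhydrolase-like gene, and Trib2, a pseudokinase gene, were both higher by 2.67 on the log2 scale. The remaining named genes on this side were Cck (2.35), Fam134b (2.35), Tesc (2.32), Abcc9 (2.28) and Kcng2 (2.22). Abcc9 encodes the sulfonylurea receptor of the cardiac potassium channel, and Kcng2 a modifying potassium channel subunit. Cck, the cholecystokinin prohormone, rested on 1 library: it was at 431 against 61.9 CPM at E9.5 and at 24.2 against 26.8 CPM at E10.5, and DESeq2 did not call it (adjusted p = 0.947).

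The ventricular chamber list had 8 of 13 genes higher and none lower, with a median log2 difference of 0.78. Besides Myl2, Myl3 and Hey2 these were Irx1, Irx2, Nkx2-5, Lbh and Mpped2. Nkx2-5, the homeobox factor of early heart muscle, was higher by 0.78 (adjusted p = 0.000942), but by 0.060 (adjusted p = 0.931) when both classes were held to all 8 rule genes. Mpped2, a metallophosphoesterase gene, was higher by 1.71. DESeq2 called 5 of the 13 genes higher. The Irx genes were sparse. Irx1 had 42 UMIs in the E9.5 ventricular cells but only 1 at E10.5, and its difference was 2.18 at E9.5 but -0.32 at E10.5. Irx2 had 33 and 3 UMIs and was higher by 2.34 (adjusted p = 0.0051).

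In the trabecular list 4 of 8 tested genes were higher, namely Nppa, Nppb, Cited1 and Smpx, and none was lower. With all 8 rule genes required 4 were higher and 1 was lower, the gap junction gene Gja5 (-1.52, adjusted p = 0.0025). Nppa stood at 857 against 256 CPM at E9.5 and at 335 against 259 CPM at E10.5 (log2 1.31, adjusted p = 0.00196, DESeq2 adjusted p = 0.514), and with all 8 rule genes required its difference was -0.07. Nppb was higher by 1.98 (adjusted p = 4.61e-05), and Smpx, a small muscle protein linked to the cytoskeleton, by 1.80. In the compact-layer list, with 5 tested genes, Hey2 and Mycn were higher and the Notch target Hes1 lower. Mycn differed by 0.78 (adjusted p = 0.0068), but it was not called by DESeq2 (adjusted p = 0.292), on thinned cells, with doublets removed or with all 8 rule genes (0.37, adjusted p = 0.367). Hey2 was then the only higher gene of that list. Hes1 was not called by DESeq2, on thinned cells or with all 8 rule genes (-0.52, adjusted p = 0.282). Of the left ventricular genes Cited1 was higher and Tbx5 lower (-0.87, adjusted p = 0.0185), and Hand1 did not pass the test (log2 0.22, adjusted p = 0.788), with opposite differences in the 2 libraries. The Tbx5 call was lost with DESeq2 (adjusted p = 0.166), with doublets removed, on thinned cells and with Irx4 at 2 or more UMIs.

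**Figure D2:**
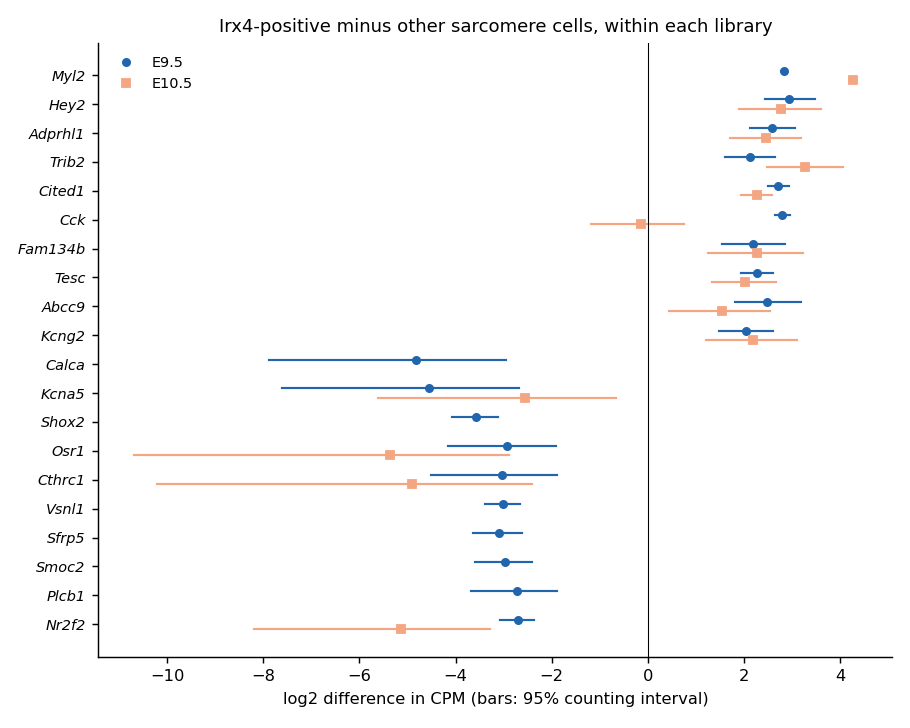
Log2 difference in CPM between ventricular and other sarcomere cells within the E9.5 and E10.5 libraries, with 95% counting intervals, for the 10 higher and 10 lower genes named by rule, where a gene at 0 UMIs in the E10.5 ventricular cells has no E10.5 point. Myl2 and Hey2 lie above 0 in both libraries, while Cck lies at 2.80 at E9.5 and -0.14 at E10.5.

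All 7 tested genes of the atrial and inflow list were lower in ventricular cells (median log2 -2.63). These were Nr2f1, Nr2f2, the potassium channel Kcna5, the calcium sensor Vsnl1, the ligand Angpt1, Tbx5 and Wnt2. Nr2f2 stood at 29.8 against 195 CPM at E9.5 and at 4.41 against 156 CPM at E10.5 (log2 -2.85, adjusted p = 8.65e-06). The ventricular cells were not free of it, for 21 of 107 cells held an Nr2f2 UMI at E9.5 and 1 of 24 at E10.5. Of the 21 cells at E9.5, 12 also held Nr2f1 and 9 held Vsnl1. Of the sinoatrial genes Shox2, Tbx18 and Isl1 were lower. Shox2, a homeobox factor of the pacemaker region, was at 16.8 against 201 CPM at E9.5. At E10.5 it had no UMI in the ventricular cells, which allows up to 6.61 CPM (3 counts in 453863 UMIs), against 134 CPM. Its fitted difference was -3.69 (adjusted p = 3.9e-06, DESeq2 adjusted p = 0.217). Vsnl1 was at 28.5 against 229 CPM and, at E10.5, at 0 UMIs against 196 CPM. Among 10 tested genes of the right ventricle and outflow Rspo3, a Wnt co-agonist, was higher and Isl1, Sema3c, Bmp4 and Tdgf1 were lower (median -0.58). The other lower genes named by rule were Calca, Kcna5, Osr1, Cthrc1, Sfrp5, Smoc2 and Plcb1.

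The sarcomere genes outside the rule followed the sarcomere rule closely. Of 29 such genes, 22 were higher in ventricular cells and Tpm2 was lower (-1.01), with a median of 1.04. When both classes were held to all 8 rule genes, 4 remained higher and 5 were lower, with a median of 0.02. The 4 were Myl2 (2.39), Myoz2 (1.87), a calcineurin-binding protein of the Z-disc, Acta1 (0.90), the skeletal alpha-actin, and Myl3 (0.76). The 5 lower ones were Tnnt1, Myl9, Acta2, Tagln and Tpm2, which include smooth muscle genes. The cardiac troponins Tnni3 and Tnnc1 differed by 1.30 and 0.76 with the 5-gene rule and by 0.14 and -0.31 with all 8. Over all genes the stricter rule called 328 of 9375, with 122 higher and 206 lower. The part of sarcomere RNA amount in the wider difference was not tested further. With all 8 rule genes, 7 of the 13 ventricular chamber genes were called higher and all 7 atrial and inflow genes lower.

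**Figure D3:**
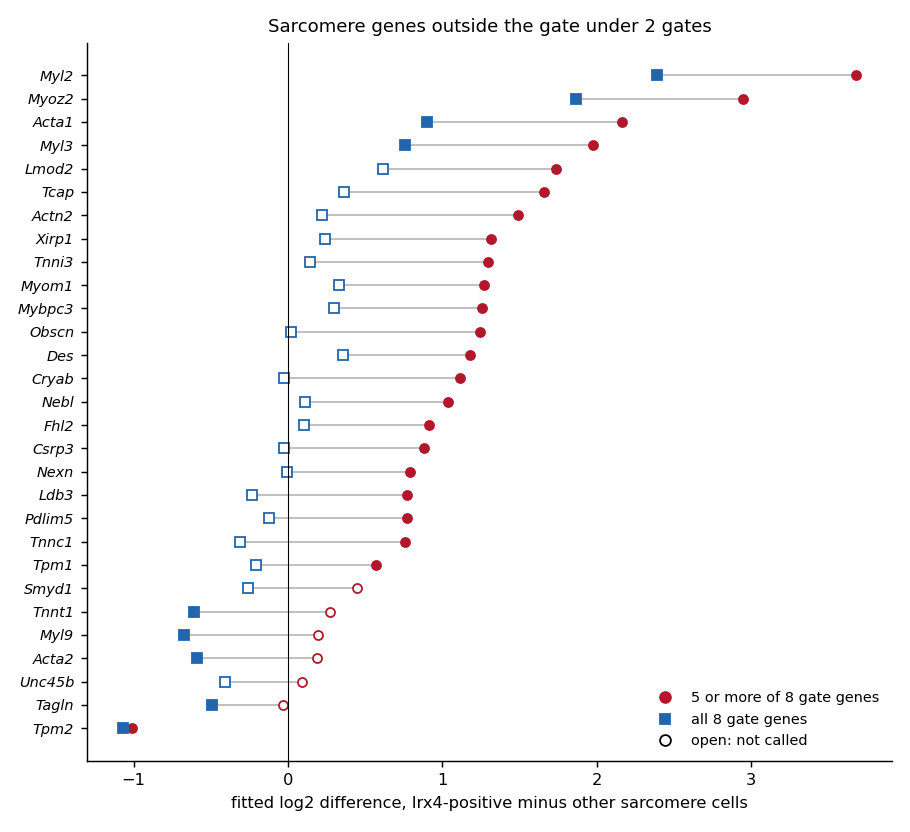
Fitted log2 differences (ventricular minus other cells) of 29 sarcomere genes outside the rule, with at least 5 of the 8 rule genes required and with all 8 required in both classes. The median moves from 1.04 to 0.02, and Myl2 keeps a difference of 2.39.

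Genes of calcium handling and excitation followed. Of 14 tested calcium genes, Pln, Ryr2, Cacna1c, Trdn and S100a1 were higher and 1 was lower, while DESeq2 called 3 higher and 0 lower. Pln per 10000 UMIs had its lowest, median and highest levels at 0, 1.85 and 15.3 at E9.5 and at 0, 5.24 and 20.9 at E10.5. It was found in 80 of 107 and 21 of 24 ventricular cells, against 94 of 410 and 94 of 264 others. In CPM this was 245 against 60.0 at E9.5 and 628 against 144 at E10.5 (log2 2.22, SE 0.12, adjusted p = 2.53e-07). Trdn, the junctional protein triadin, was higher by 1.66 (adjusted p = 5.74e-05), and the release channel Ryr2 by 0.64 (adjusted p = 0.0233). With all 8 rule genes required, Ryr2 was at -0.15, Trdn at 0.44 (adjusted p = 0.194) and Cacna1c at 0.27 (adjusted p = 0.847). Of 13 calcium genes tested there, 2 were higher and 2 lower, with a median of -0.15. Among 12 tested ion channel and gap junction genes Kcnj5, Kcne1 and Cacna1h were higher and 1 was lower. DESeq2 called 0 of them, and on thinned cells 0 of 9 were called. With all 8 rule genes the 3 stood at -0.046, 0.38 and 0.75, and none of them passed. Of 9 genes tested there, 1 was higher and 1 lower.

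Energy and glycolysis genes also leaned to the ventricular cells under the 5-gene rule. In the energy list 9 of 13 genes were higher and none lower (median 0.64), among them the heart-type cytochrome oxidase subunit Cox6a2 (1.57) and the fatty-acid carrier Fabp3 (1.41). In the glycolysis list 12 of 19 were higher (median 0.53), among them the glucose transporter Slc2a1 (1.22, adjusted p = 2.04e-05) and lactate dehydrogenase Ldha (0.67, adjusted p = 0.00903). With all 8 rule genes required no energy gene was higher and 1 was lower, and 1 glycolysis gene was higher. DESeq2 called 6 of the glycolysis genes higher.

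Signals and transcription factors differed by family. Bmp4, a ligand of the second heart field and outflow, was at 40.6 against 193 CPM at E9.5 and 30.8 against 250 CPM at E10.5 (log2 -2.31, adjusted p = 3.9e-06). The BMP target genes Id1 (-1.43) and Id3 (-1.59) and the inhibitory Smad6 were lower with it, while Bmp5 was higher (1.74, adjusted p = 0.000853). Of 13 BMP and FGF genes these were the 5 that passed. Among 24 cardiac transcription factors 4 were higher and 8 lower, the latter being Gata5, Gata6, Tbx5, Mef2c, Isl1, Hey1, Nr2f1 and Nr2f2. Gata6 differed by -1.13 (adjusted p = 0.000319) and the Hey2 relative Hey1 by -2.45 (adjusted p = 3.75e-05). Hey1 and the Notch ligand Jag1 were the lower genes of the 5 neuregulin and Notch genes, and Hey2 the higher one.

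Cell-cycle lists gave few calls. Cyclin D2 (Ccnd2) stood at 1118 against 459 CPM at E9.5 and 793 against 329 CPM at E10.5 (log2 1.42, adjusted p = 3.9e-06), and Ccnd3 and Mycn were the other 2 higher genes of 9 in the control list. None of 14 G2/M genes passed, and of 10 S-phase genes Pcna and Rrm2 were higher and Tyms lower. With all 8 rule genes required 6 S-phase and 2 G2/M genes were higher. The fetal growth genes Igf2 (-0.71), H19 (-1.12) and Dlk1 (-1.79), with Nfia, were the 4 lower genes of 7 in the developmental timing list. Matrix genes gave 2 higher (Vcan and Col4a1) and 5 lower of 13, while DESeq2 called 0 higher and 3 lower, and with all 8 rule genes 1 was higher and 0 lower. Of the control list 1 gene was called by DESeq2 and 1 with all 8 rule genes.

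Markers of other cell types were low in the ventricular cells. Of 6 tested endothelial genes 4 were called lower than in the comparison cells, but 0 with DESeq2, doublets removed or thinned cells, and 1 of 3 with all 8 rule genes. Cdh5 was at 0 at both stages, and the summed endothelial level was 85.1 against 134 CPM at E9.5 and 55.1 against 188 CPM at E10.5. The macrophage genes C1qa, C1qb, Csf1r and Cx3cr1 were at 0, but 1 ventricular cell at E10.5 held 21 of the 22 Lyz2 UMIs there, and Lyz2 was found in 7 of 107 ventricular cells at E9.5, with up to 17 UMIs, against 8 of 410 others. With all 8 rule genes Lyz2 was called higher (2.38). Of the neural crest genes Sox10, Foxd3 and Tfap2a were at 0, and of the skeletal muscle genes Myf5, Myog and Pax7 were at 0 or near it. In the mesenchyme list 6 of 8 genes were lower and in the epicardial list 3 of 7. DESeq2 called 2 and 2 of these, and with all 8 rule genes none of 6 mesenchyme and none of 5 epicardial genes was called. Wt1, an epicardial factor, was found in 30 of 107 and 2 of 24 ventricular cells, against 55 of 410 and 30 of 264 others, and did not pass the test. Erythroid genes differed by library, at 5.18 against 9.84 CPM at E9.5 and at 5748 against 14782 CPM at E10.5, where cells outside the sarcomere rule were at 105859 CPM. Of the 7 erythroid genes tested 4 were called lower, but with scored doublets removed Hba-a1, Hba-x, Hbb-bh1 and Hbb-y had differences of 0.49, 0.49, 0.37 and 0.24 in the other direction, none of them past the test.

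Against the atrial-like cells alone 156 genes (1.71%) were higher and 166 (1.82%) lower of 9101, in 1 fit of the 4 classes. The median over all genes was -0.02. Nr2f1, Nr2f2, Isl1, Rspo3 and Tdgf1 built these classes and were not tested. Myl2 was at 138 CPM in atrial-like cells at E9.5 and at 198 CPM at E10.5, a log2 difference of 5.30 (SE 0.39, adjusted p = 0.000295). Hey2 was at 2.58 and 3.79 CPM (log2 4.02, adjusted p = 0.000368), and Pln at 16.9 and 60.6 CPM (log2 3.68, adjusted p = 0.00385). Cited1 (3.22), Acta1 (2.73) and Mpped2 (2.66) were also among the 10 named genes, with Trib2, Adprhl1, Fam134b and S1pr1. All 5 tested atrial and inflow genes were lower (median -2.62), against cells that were themselves chosen by Nr2f1 or Nr2f2 of that list. Wnt2, a ligand of the inflow region, was at 318 and 241 CPM in atrial-like cells and at 63.1 and 17.6 CPM in ventricular cells (log2 -2.62, adjusted p = 0.00385). Shox2 (-4.10, adjusted p = 0.000895) and Vsnl1 (-3.81, adjusted p = 0.00182) were among the 10 named lower genes, with Calca, Kcna5, Osr1, Smoc2, Pvalb, Sfrp5, Hsd3b6 and Plcb1.

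Against the outflow-like cells 66 genes (0.725%) were higher and 136 (1.49%) lower, with a median of -0.01. None of the 5 tested atrial and inflow genes passed here, and their median was -0.03. The right ventricle and outflow list instead gave 4 of 7 genes lower, namely Hand2 (-1.72), the guidance ligand Sema3c (-2.57), Bmp4 (-3.24) and Fgf8 (-2.10). Outflow-like cells were chosen to lack Nr2f1 and Nr2f2 and to hold Isl1, Rspo3 or Tdgf1. Neither list is therefore an independent check here. Nrp2, a semaphorin receptor, was the lower gene with the largest difference among those named. It was at 12.1 CPM in ventricular and 217 CPM in outflow-like cells at E9.5 and at 24.2 and 478 CPM at E10.5 (log2 -4.06, adjusted p = 0.000121). Mecom, Rgs5, Tgfb1, Mfap4, Fam89a, Apela, Amph and Fry were the others with Bmp4. Myl2 was higher by 3.09 (adjusted p = 0.00238), Hey2 by 2.43 (adjusted p = 0.00634) and Cited1 by 2.28 (adjusted p = 0.00625). Nppa was at 99.3 CPM in outflow-like cells at E9.5 and at 0 UMIs at E10.5, and was higher by 3.80 in ventricular cells (adjusted p = 0.0288, DESeq2 adjusted p = 0.354). Tnni3, the cardiac troponin I, was at 238 and 257 CPM in outflow-like cells against 1051 and 1185 CPM (log2 2.27, adjusted p = 0.014). Whether a gene differed from atrial-like and from outflow-like cells by unlike amounts was not tested.

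Some comparison cells looked like the ventricular ones apart from Irx4. The 67 and 24 Irx4-negative cells with 10 or more Myl2 UMIs, a limit set after seeing the data, had Myl3 at 3820 and 4130 CPM, against 3764 and 4713 CPM in the ventricular cells. Pln was at 287 and 334 CPM in them. Hey2 was lower, at 26.8 and 29.0 CPM, while Bmp4 was higher, at 101 and 205 CPM, than in the ventricular cells (40.6 and 30.8 CPM). With these cells left out of the comparison, 1416 genes were called in place of 979.

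The stages were compared within ventricular cells on summed UMIs, for 8073 genes with at least 20 UMIs. At E10.5, 314 genes (3.89%) were at least 2-fold higher than at E9.5 and 657 (8.14%) at least 2-fold lower, and of these 193 and 248 lay beyond counting error. The E10.5 sum holds 453863 UMIs from 24 cells against 2314820 from 107, and in 175 of the lower genes more than 50% of the E10.5 UMIs came from 1 cell. The median log2 difference was -0.08, and it was -0.01 in the comparison cells. Without the ventricular cell that held the most UMIs of each gene, 137 genes were higher and 1071 lower, with a median of -0.29. With totals that left out mitochondrial, ribosomal protein and haemoglobin genes, 384 were higher and 575 lower, with a median of -0.02.

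Myl2 was higher at E10.5, by 1.07 on the log2 scale (95% interval 1.01 to 1.12), while in the comparison cells the difference was -0.37. Myoz2 was higher by 2.74 (2.04 to 3.45), against 1.41 in the other cells. Pln was higher by 1.36 (1.15 to 1.57) in ventricular and by 1.26 in other cells, so the difference was seen in both classes. Tbx20, a T-box factor of the chambers, differed by 1.99 in ventricular and 2.67 in other cells. Bmp2, a ligand of the atrioventricular canal, was higher by 1.35 (0.85 to 1.83) and lower by 0.38 in the others (log2 -0.38). Its E10.5 UMIs came from 4 ventricular cells with 23, 21, 9 and 1 UMIs. All 4 held Tbx2 and 3 held Tbx3, which are repressors of chamber genes in that canal. Mki67, a proliferation marker, differed by 1.23, with 28 UMIs at E10.5. It was the only 1 of 14 G2/M genes at least 2-fold higher, and the median of that list was 0.03. Of 10 S-phase genes none was at least 2-fold higher and Rrm2 was at least 2-fold lower, with a median of -0.45.

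Other genes were lower at E10.5. Nppa differed by -1.36 (-1.60 to -1.12), against 0.02 in the comparison cells, and the share of ventricular cells with a UMI was 74 of 107 at the earlier stage against 12 of 24. Nppb UMIs at E10.5 came for 81.7% from 1 cell. Cck differed by -4.15 (-5.16 to -3.31), against -1.21 in the others, and was seen in 50 of 107 and 5 of 24 cells. Hand1 differed by -0.79 (-1.54 to -0.12) in ventricular cells and by 1.82 in other cells. Nr2f2 (-2.76 against -0.32) and Wnt2 (-1.84 against -0.47) were lower, as were 5 of the 6 atrial and inflow genes compared. The E10.5 Nr2f2 value rests on 2 UMIs of 1 cell. Mybphl, a myosin-binding protein gene, differed by -2.83 but had 3 UMIs at E10.5, all in 1 cell. Among the 12 ventricular chamber genes compared, 2 were at least 2-fold higher (Myl2 and Tbx20) and 2 lower (Irx1 and Irx2).

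Several of the largest stage differences appeared at about the same size in the comparison cells. Hbb-y, an embryonic haemoglobin, differed by 10.8 in ventricular and 10.9 in other cells. It was found in 3 of 107 ventricular cells at E9.5 and in 24 of 24 at E10.5, with medians there of 27.8 UMIs per 10000 in ventricular and 28.1 in other cells. Hbb-bh1, Hba-a1, Hba-x and Hba-a2 went with it. Eef1a2 (3.94 against 4.16), Gm10320 (3.87 against 4.16), Nme2 (3.82 against 3.33) and mt-Atp8 (3.64 against 3.94) were the other higher genes named by rule, with Pf4, whose E10.5 UMIs came for 86.7% from 1 cell. On the lower side Mhrt, a transcript that overlaps Myh7 on the opposite strand, differed by -3.95 against -4.02, and Gm5611 by -3.73 against -4.90. Car4, Itm2a (-3.47 against -1.70), Cdk2, Lmf1 and Tpm3-rs7 completed the lower genes with Cck, Mybphl and Nr2f2.

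**Figure D4:**
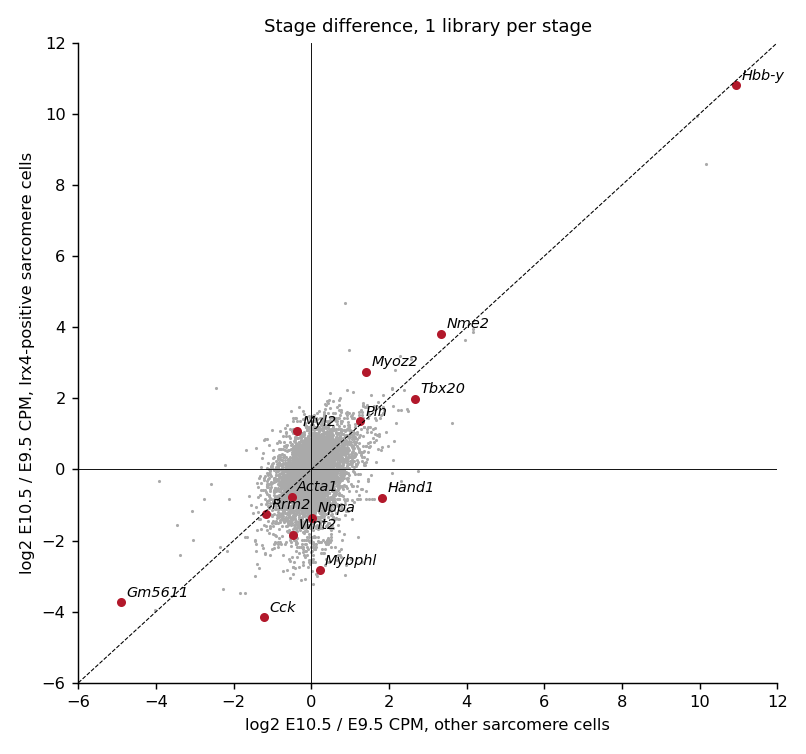
Log2 difference between E10.5 and E9.5 in ventricular cells (y axis) and in other sarcomere cells (x axis), 1 point for each gene above 0 in all 4 sums. Values below are given for ventricular cells first, then other cells. Hbb-y lies at 10.8 and 10.9, Pln at 1.36 and 1.26, while Myl2 (1.07 and -0.37), Nppa (-1.36 and 0.02) and Hand1 (-0.79 and 1.82) lie away from the diagonal.

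The same rule applied to the 2 earlier libraries gave 84 cells at E8.0 and 12 at E8.25, which were 21.3% and 16% of the sarcomere cells there. Those libraries held another dissection, so the 4 values are set side by side. Myl2 stood at 223, 289, 3941 and 8258 CPM from E8.0 to E10.5, and was at 0 in 26 of the 84 cells at E8.0 and in 5 of the 12 at E8.25. Myl3 stood at 1139, 1318, 3764 and 4713 CPM. Pln had 1 UMI at E8.0 and none at E8.25, then 245 and 628 CPM. Nppa stood at 7.40, 404, 857 and 335 CPM, but 140 of its 158 UMIs at E8.25 came from 1 cell. Wnt2 went the other way, with 279, 269, 63.1 and 17.6 CPM, as did Tdgf1, a Nodal co-receptor, with 295, 141, 5.18 and 2.20 CPM. Irx4 at E8.0 and E8.25 was also seen in 52 and 48 cells outside the sarcomere rule.

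Ventricular cells differed among themselves. At E9.5, 44 of 107 held a Hand1 UMI and 63 did not, with median depths of 22820 and 17585 UMIs. Of 7556 genes compared between these cells, 189 (2.5%) were at least 2-fold higher with Hand1 and 189 (2.5%) lower, and 127 and 130 of them lay beyond counting error. The cells come from 1 library and were divided by a measured value, so the differences are described without a test. The median over all genes was 0.07.

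Cited1 stood at 382 CPM in the cells with Hand1 and 46.9 CPM in those without, a log2 difference of 3.03 (2.62 to 3.46). It was found in 37 of 44 cells (84.1%) against 26 of 63 (41.3%), and after thinning in 73.8% against 25%. Cck showed the opposite pattern, with 43.8 against 807 CPM, a difference of -4.20 (-4.64 to -3.79). It was found in 11 of 44 cells (25%) against 39 of 63 (61.9%), and after thinning in 16.7% against 55%. In the cells without Hand1, 20.2% of the Cck UMIs came from 1 cell. Cited1 and Cck were found together in 19 cells, Cited1 alone in 44, Cck alone in 31 and neither in 13.

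Cells without Hand1 also had more of several muscle genes. Pln was at 95.5 CPM with and 389 CPM without Hand1 (-2.03), Myoz2 differed by -2.39, Myl2 by -0.68 (3024 against 4833 CPM), Cox6a2 by -1.45 and Acta1 by -0.73. Sema3c (-2.32), the heart receptor gene Gpr22 (-2.66) and Irx2 (-2.13) were lower with Hand1 as well, with Gem, Itgb1bp2, Ppp1r17 and Otub2. Higher with Hand1 were Phlda2 (3.13), the gap junction gene Gja1 (1.24), Phc1, Gsn, Mab21l2, Bap1, Dcaf15 and Ears2. Isl1 (3.68) and Tcf21 (3.63) rested on 1 cell for 72% and 70.8% of their UMIs.

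At E10.5 the numbers were small. There 6 of 24 ventricular cells held Hand1 and 5 held Cck, and no cell held both. The Cck cells held 6, 2, 1, 1 and 1 UMIs and were 27.8% of the cells without Hand1. So few cells cannot show whether Hand1 and Cck avoid each other. Cited1 was found in 5 of the 6 Hand1 cells and in 9 of the other 18, and differed by 1.76 (1.21 to 2.32). Pln differed by -1.0 (-1.51 to -0.53) and Myl2 by 0.08. The Cited1 and Pln differences thus had the same direction at both stages, and that of Myl2 did not.

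**Figure D5:**
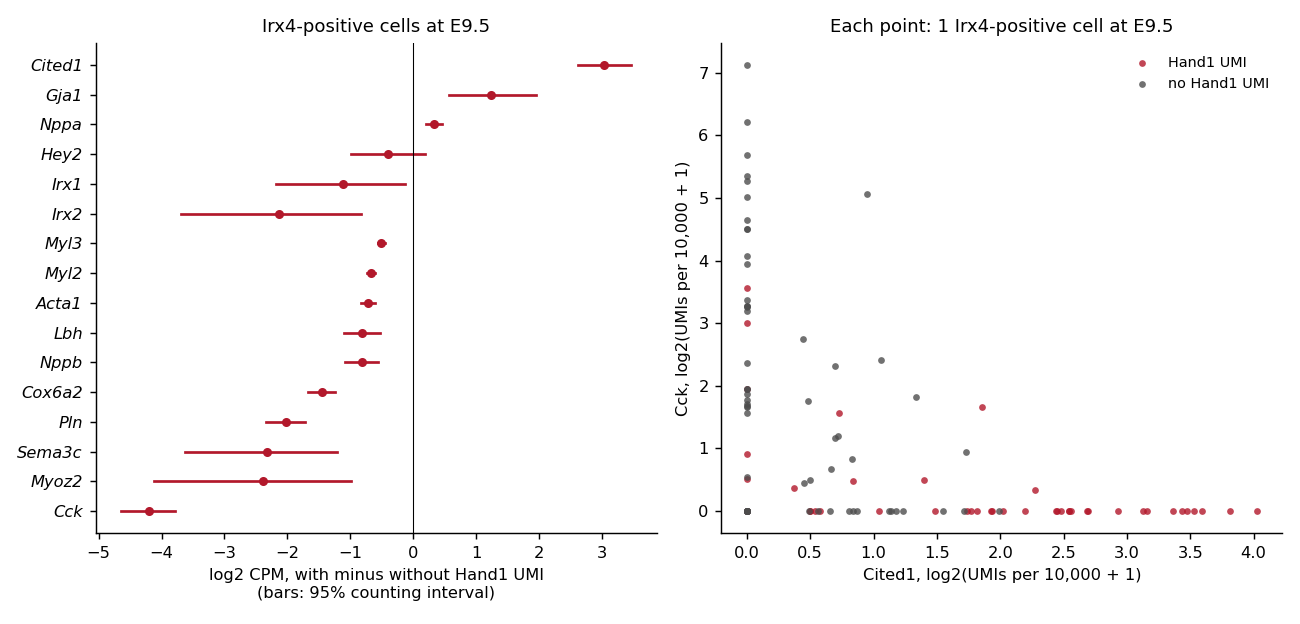
Left, log2 difference in CPM between ventricular cells with and without Hand1 at E9.5, with 95% counting intervals, for 16 genes; right, Cited1 against Cck in each ventricular cell at E9.5, coloured by Hand1. Cited1 (3.03) and Cck (-4.20) lie on opposite sides of 0, and 19 of 107 cells hold both.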

How the data were processed

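Single cells were profiled with 10x 3′ v2 chemistry. The authors made the deposited counts (whole UMIs per gene and cell, 27998 genes) with Cell Ranger 3.1.0 on mm10, and these deposited counts were not normalised. The members, gene lists and tests were chosen with earlier results of these data known. UMIs were summed per library and class and tested with edgeR 4.0.16 (quasi-likelihood, library term, filterByExpr, TMM) in R 4.3.3, with Benjamini-Hochberg adjustment over all genes tested. DESeq2 1.42.0 was an alternative. Stages were compared as CPM with exact conditional binomial intervals (95%), for genes with at least 20 UMIs. Named genes were members of the lists and the 10 called genes with the largest difference in each direction with at least 20 CPM in 1 class or stage in every library compared. Doublets were scored with Scrublet in scanpy 1.11.5 (rate 0.8% per 1000 cells) and removed only in an alternative. The edgeR test was run on simulated sums with known fold changes. These were the same in both libraries, so the simulation does not cover class differences that vary between libraries. Intervals cover counting error only. Some members of the calcium, ion channel and sinoatrial lists are not reported here.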

Additional observations from a re-analysis of the deposited data

Results flagged for a closer look

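Among the genes of the lists and those named by rule, 12 differed between ventricular and other sarcomere cells in opposite directions at E9.5 and E10.5, with counting intervals that left out 0 in both libraries. No share over all genes is set beside this count, so it describes single genes and is no result about the lists. Values are log2 differences, ventricular minus other cells, and the difference between stages was not tested, since each stage is 1 library. Hand1, a left ventricular factor, was at 0.95 at E9.5 and -1.66 at E10.5. Mybphl was at 0.81 and -2.24, the latter from 3 UMIs of 1 cell. The smooth muscle genes Acta2 (0.38 and -0.32), Tagln (0.38 and -0.90) and Myl9 (0.49 and -0.43) were higher in ventricular cells at E9.5 and lower at E10.5. So were the troponin gene Tnnt1 (0.53 and -0.45), the myosin chaperone gene Unc45b (0.21 and -0.50) and the creatine kinase gene Ckb (0.47 and -0.44). The mitotic genes Birc5 (-0.35 and 0.82) and Ccnb2 (-0.22 and 0.82) and the glycolytic genes Pfkl (-0.33 and 0.40) and Pkm (-0.15 and 0.25) went the other way.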

How the results depend on the processing

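The count of genes that differed from other sarcomere cells (979) was 253 with DESeq2, 643 with scored doublets removed, 1787 with 4 sarcomere genes required, 448 with 7, 328 with 8, 359 on thinned cells and 15 without the library term. The causes were not tested. The share of higher genes among those called was 54.7%, but 44.9% with 7 and 37.2% with 8 sarcomere genes. The other alternatives stayed within 1.5 times of it, from 801 (Irx4 at 2 or more UMIs) to 1416. Against atrial-like cells (322) DESeq2 called 172. Against outflow-like cells (202) DESeq2 called 151. The stage count (971) was 361 with a minimum of 50 UMIs and 528 on thinned cells. Its higher share was 32.3%, and 11.3% without the most UMI-rich cell of each gene. The ventricular share at E9.5 was 15.6% with 4, 30.8% with 7 and 41.1% with 8 sarcomere genes, 12.9% on thinned cells and 11.6% with Irx4 at 2 or more UMIs. At E10.5 it was 18.4% with 8 genes and 3.47% with Irx4 at 2 or more UMIs. With 8 sarcomere genes these differences changed sign and were not called: Cryab (-0.024), Csrp3 (-0.024), Kcnj5 (-0.046), Ldb3 (-0.23), Nexn (-0.0063), Nppa (-0.069), Pdlim5 (-0.12), Rspo3 (-0.13), Ryr2 (-0.15), Slc25a4 (-0.065), Tnnc1 (-0.31), Tpm1 (-0.21) and Tyms (0.12). Pcna did so on thinned cells (-0.061). With doublets removed Hba-a1, Hba-x, Hbb-bh1 and Hbb-y changed sign against other cells (0.49, 0.49, 0.37 and 0.24) and against outflow-like cells (0.40, 0.46, 0.34 and 0.19). Without 1 library counts of calls could not be fitted, since no residual degree of freedom remains. Of the called list and named genes against other cells, leaving out E9.5 moved 96 values by more than 1 SD between the libraries and reversed 2, and leaving out E10.5 moved 57 and reversed 1. Values ran from -0.14 to 2.80 for Cck, from -0.32 to 2.18 for Irx1, and from -1.32 to 0.24 for Hba-x, and from -2.67 to 0.20 for Hba-x against outflow-like cells. The alternatives with 8 sarcomere genes, without Myl2-rich cells, without the most UMI-rich cell of a gene and without Lyz2 or Pf4 cells were chosen after seeing the data. No paired analysis was possible because the labels give no replicate numbers, other than the library term, which sets the classes of 1 library against each other. The 24 cells at E10.5 limit the depth there.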
